A study of Mus musculus with 12 samples.

Results

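The pericentral hepatocyte markers are 10 genes whose products are concentrated in the liver cells that surround the central vein: Glul, Oat, Slc1a2, Rhbg, Lgr5, Axin2, Tbx3, Cyp2e1, Cyp1a2 and Gulo. A probe set was counted as a member where its platform symbol was one of these names alone, which gave 13 probe sets for the 10 genes, out of 22626 probe sets for 12393 genes. Glul, Axin2 and Tbx3 had 2 probe sets each and the other 7 genes had 1. The arrays held RNA from whole livers of male mice of FVB background, 6 Pctp-/- and 6 wild-type littermates. Pctp encodes phosphatidylcholine transfer protein (PC-TP, StarD2), which carries phosphatidylcholine between membranes. The labels name no tissue-restricted driver for its deletion. Both genotypes ate a diet with 0.2% fenofibrate by weight, a drug that activates the nuclear receptor PPARα, for 7 days from 8 weeks of age and were killed at 9 weeks. No liver without the drug was analysed here, so every value below is from treated mice.

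In a liver lobule, blood runs from the portal vein to the central vein, and hepatocytes along this path carry out different work. Endothelial cells of the central vein release Wnt ligands that stabilise β-catenin in the nearest hepatocytes, and β-catenin with TCF/LEF factors turns on the pericentral genes. The innermost hepatocytes take up ammonium that escaped the urea cycle upstream and fix it as glutamine, and the wider pericentral zone holds much of the cytochrome P450 activity. A whole-liver array averages over all zones, so fewer pericentral cells and less RNA per pericentral cell cannot be told apart.

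On the arrays as a whole, Pctp, the gene that was knocked out, read 66.5 to 99.7 on KO arrays and 2737 to 2954 on WT arrays at its brighter probe set. Median intensities were 83.99 to 91.1 across the 12 arrays, and arrays correlated with each other at 0.985 to 0.994 on the log2 scale. RNA integrity, read as the β-actin signal at the 5′ end relative to the 3′ end (log2 ratio of control probe sets), was -1.26 to -1.05 in KO and -1.76 to -1.40 in WT livers, a difference of 0.39 without overlap (two-sided exact permutation p = 0.00216, the smallest that 6 arrays against 6 allow, and 0.00288 after Benjamini-Hochberg adjustment over 4 control transcripts). By the same measure and test, Gapdh was at 0.096 to 0.18 in KO and -0.062 to 0.074 in WT livers (difference 0.11, exact p = 0.00216) and pyruvate carboxylase at -2.64 to -2.42 in KO and -3.10 to -2.65 in WT livers (difference 0.32, exact p = 0.00216). The transferrin receptor, at -1.56 to -1.33 in KO and -1.79 to -1.29 in WT livers, overlapped between groups (difference -0.016, exact p = 0.866). The part of RNA integrity in the differences below was not tested. Hepatocyte markers were bright in both groups: 1 of 6 measured markers passed the test (Hnf4a, 1.25-fold up, adjusted p = 0.0192), and their summed intensity was 42699 to 45248 in KO and 42582 to 45086 in WT livers. Of 8 dimmer probe sets of these markers 3 were higher, all of Hnf4a, and none was lower.

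Of the 10 pericentral genes, 3 were lower in KO livers and none was higher at an adjusted p under 0.05 (limma, adjusted over all 22626 probe sets). Over all 12393 genes, each represented by its brightest probe set, 5.24% were lower and 6.46% higher by the same rule. The 3 were Oat, Rhbg and Cyp1a2, down 1.29-fold, 1.55-fold and 1.23-fold. Glul, Lgr5, Axin2, Tbx3, Cyp2e1, Slc1a2 and Gulo did not pass. The median difference of the 10 genes was -0.06 on the log2(intensity + 16) scale, against 0.015 for all genes.

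**Figure D1:**
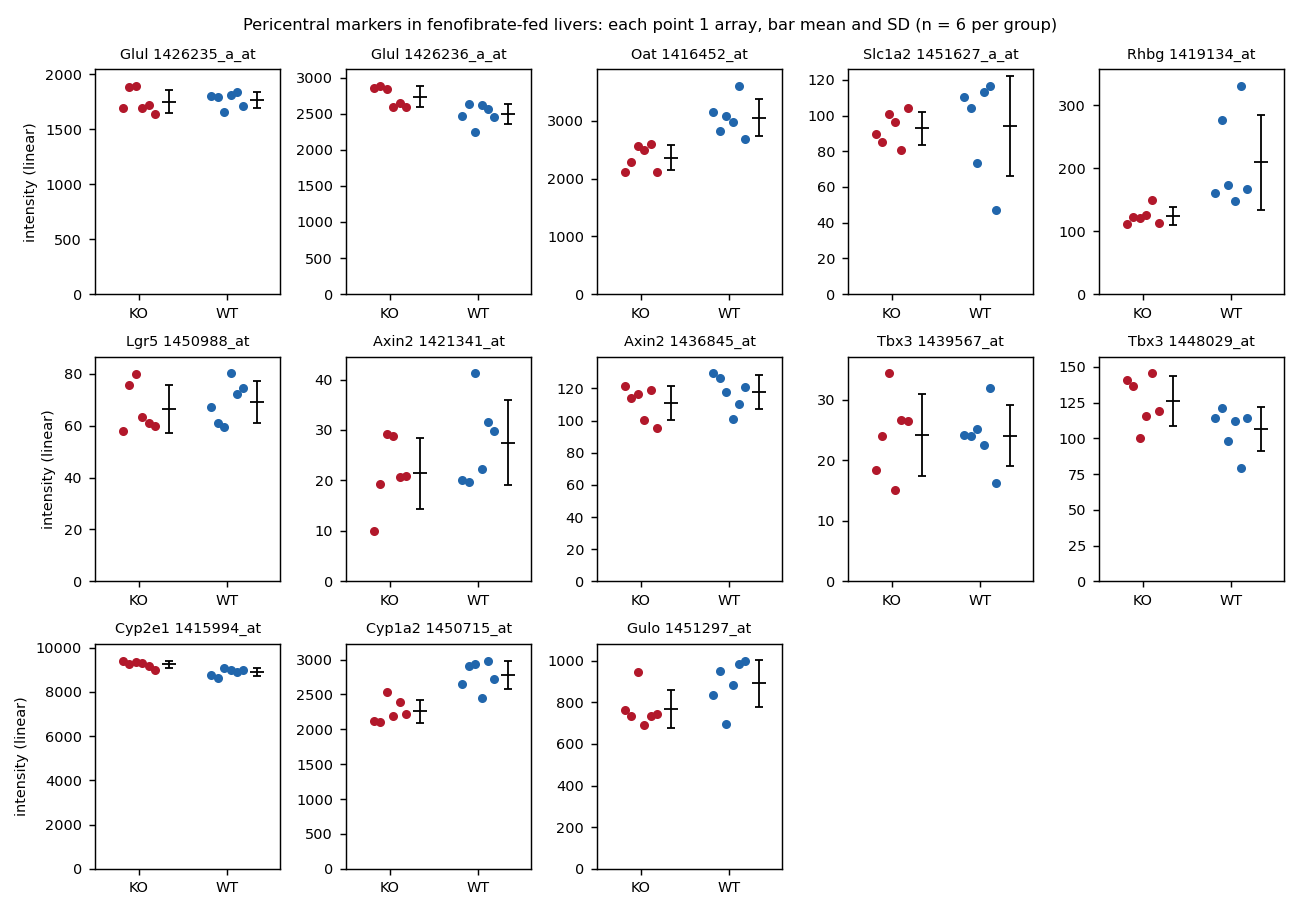
Intensity (linear scale, vertical axis from 0) of the 13 member probe sets on each array, KO at the left of each panel and WT at the right, with the mean and SD of 6 arrays as a bar beside the points. Oat is the panel in which all 6 KO arrays lie below all 6 WT arrays, and Rhbg the one in which 2 WT arrays stand far above the rest.

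The upstream sequences of 4 members are shown because they pair genes that fell with genes that did not pass: Oat and Cyp1a2 with Glul and Cyp2e1. Each run holds the 250 bases before the annotated start, from RefSeq on GRCm38.p6, read 5′ to 3′ on the gene's strand. Capitals mark a match to CTTTGAT or CTTTGAA, core letters of TCF/LEF sites, on either strand.
Oat, minus strand, chr7:132576399-132576648: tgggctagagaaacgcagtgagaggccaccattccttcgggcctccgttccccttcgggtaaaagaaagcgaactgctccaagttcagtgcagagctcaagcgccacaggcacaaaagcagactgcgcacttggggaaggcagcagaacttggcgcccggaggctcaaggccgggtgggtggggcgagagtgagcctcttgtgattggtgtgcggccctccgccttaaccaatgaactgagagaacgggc
Cyp1a2, minus strand, chr9:57683656-57683905: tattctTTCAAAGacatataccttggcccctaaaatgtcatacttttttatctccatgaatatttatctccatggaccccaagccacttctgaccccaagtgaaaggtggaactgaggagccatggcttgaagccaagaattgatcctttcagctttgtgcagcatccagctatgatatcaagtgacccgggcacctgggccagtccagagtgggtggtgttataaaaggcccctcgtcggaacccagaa
Glul, plus strand, chr1:153899679-153899928: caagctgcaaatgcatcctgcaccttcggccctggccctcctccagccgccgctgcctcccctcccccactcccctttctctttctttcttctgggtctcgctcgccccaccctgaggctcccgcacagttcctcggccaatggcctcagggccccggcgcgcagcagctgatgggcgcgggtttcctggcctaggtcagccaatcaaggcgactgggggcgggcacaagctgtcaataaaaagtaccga
Cyp2e1, plus strand, chr7:140763569-140763818: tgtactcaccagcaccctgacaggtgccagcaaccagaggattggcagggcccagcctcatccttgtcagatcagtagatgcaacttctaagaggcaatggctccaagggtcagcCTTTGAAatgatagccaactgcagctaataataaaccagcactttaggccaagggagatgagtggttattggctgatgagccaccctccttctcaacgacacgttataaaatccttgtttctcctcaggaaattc
Cyp1a2 held 1 match, from -244 to -238 relative to the start, on the strand opposite to the gene. Cyp2e1 held 1 from -135 to -129 on its own strand. Oat and Glul held none in this window. Of the 10 members 6 had a window in the reference table, namely these 4, Slc1a2 and Axin2, and 3 of the 6 held a match, Slc1a2 being the other. The windows of Slc1a2 and Axin2 precede starts that lie 48.2 kb and 2.52 kb inside the annotated genes, so they are not the regions before the genes' first bases. Among 32851 windows of the same length, 7.48% held these letters. GCGTG, the core letters at which the aryl hydrocarbon receptor binds, was in none of the 6 windows on either strand and in 28.2% of all windows. A match describes letters and is not a measured site.

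Oat encodes ornithine aminotransferase, the mitochondrial enzyme that turns ornithine into a precursor of glutamate, and lies at chr7:132557475-132576398 on GRCm38.p6. Its probe set 1416452_at read from 2117 to 2598 in KO livers with a median of 2385, and from 2691 to 3602 in WT livers with a median of 3029. Every KO array was below every WT array, which was so for 3.12% of all genes in this direction. KO replicates 1 and 6 were the lowest and WT replicate 5 was the highest. The difference was -0.37 (SE 0.0784, 95% interval -0.54 to -0.20, adjusted p = 0.00996), from means of 2360.25 ± 216 in KO and 3056 ± 317 in WT livers (SD, n = 6 each). It kept its call without each array in turn, with adjusted p from 0.0103 to 0.0241.

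Rhbg encodes an ammonium transporter of the Rh glycoprotein family in the hepatocyte plasma membrane and lies at chr3:88242874-88254739. Its probe set 1419134_at ran from 112 to 150.263 in KO livers with a median of 121, and from 148 to 331 in WT livers with a median of 170.25. WT replicates 5 and 2, at 331 and 277, stood above the other 4 WT arrays, which ended at 173. One KO array, replicate 5, exceeded the lowest WT array, replicate 4. The difference was -0.63 (SE 0.172, 95% interval -1.004 to -0.26, adjusted p = 0.0309), from means of 124 ± 14.1 in KO and 209 ± 75.5 in WT livers (SD, n = 6 each). Without WT replicates 2 and 5 together, a setting chosen after the data were seen, it was -0.35 (SE 0.0786, adjusted p = 0.0222). Leaving out any 1 of KO replicates 1, 2, 3, 4 or 6 or WT replicate 2 ended the call (differences from -0.64 to -0.54, adjusted p from 0.0536 to 0.0636). Rhbg was also the 1 member among the 727 probe sets of the authors' deposited table, which gives it a signed fold of -1.69 with bounds of -1.26 and -2.14 and an unadjusted p of 0.0397. The same authors' deposited table gives Rhbg a present call on 83% of KO arrays and 83% of WT arrays.

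Cyp1a2 encodes a cytochrome P450 that oxidises aromatic amines and caffeine and is inducible through the aryl hydrocarbon receptor. It lies at chr9:57676937-57683655. Its probe set 1450715_at read from 2102 to 2529 in KO livers with a median of 2200.42, and from 2456 to 2986 in WT livers with a median of 2816. KO replicate 3, the highest KO array, was above WT replicate 4, the lowest WT array, and the groups were otherwise apart. The difference was -0.30 (SE 0.0636, 95% interval -0.43 to -0.16, adjusted p = 0.0105), from means of 2258 ± 168 in KO and 2776 ± 203 in WT livers (SD, n = 6 each). The call held without each array in turn, with adjusted p from 0.00832 to 0.0259.

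Glul encodes glutamine synthetase, which joins ammonium to glutamate and marks the innermost ring of hepatocytes, and lies at chr1:153899929-153909723. Its brighter probe set 1426236_a_at read from 2589 to 2883 in KO livers with a median of 2745, and from 2246 to 2628 in WT livers with a median of 2516. Of the KO arrays 4 were above the highest WT array. The difference was 0.13 (SE 0.0524, 95% interval 0.019 to 0.25, adjusted p = 0.126), and it did not pass. With the trended and robust variance model the adjusted p was 0.0468, and over the other alternatives it lay between 0.0721 and 0.498. The other probe set, 1426235_a_at, read from 1634 to 1893 in KO livers and from 1654 to 1842 in WT livers, and its difference was -0.016 (95% interval -0.13 to 0.094, adjusted p = 0.885). The 2 differences had opposite signs, and neither passed.

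Slc1a2 encodes the glutamate transporter GLT-1, which in liver brings glutamate into the same pericentral cells. Its probe set 1451627_a_at was dim, from 80.7 to 104 in KO livers with a median of 93.0 and from 46.9 to 117 in WT livers with a median of 107. WT replicate 6 was the lowest of the 12 arrays and WT replicate 5 the highest, so the WT arrays spanned the KO arrays on both sides. The difference was 0.026 (95% interval -0.33 to 0.38, adjusted p = 0.945). It was -0.0047 after quantile normalization, -0.0065 after median centring and -0.13 without WT replicate 6, so it has no settled direction.

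**Figure D2:**
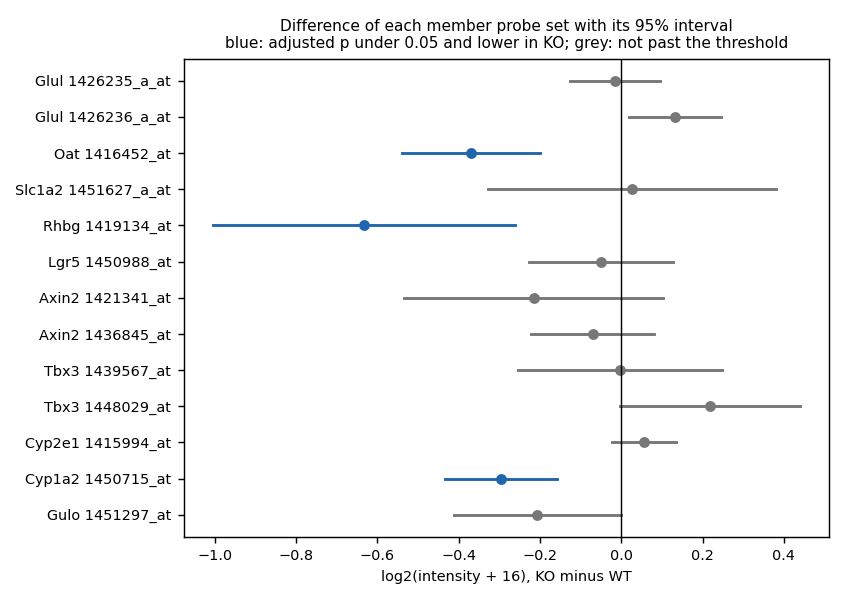
Difference between KO and WT livers for each member probe set on the log2(intensity + 16) scale (horizontal axis), with the 95% interval of the limma fit as a line. Oat at -0.37, Rhbg at -0.63 and Cyp1a2 at -0.30 passed the adjusted threshold, and the interval of Gulo ends just below 0.

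Lgr5, Axin2 and Tbx3 are targets of Wnt signalling. Lgr5, the R-spondin receptor that strengthens the Wnt signal, read 58.0 to 79.9 in KO livers with a median of 62.2, and 59.5 to 80.1 in WT livers with a median of 69.7. It was below the array's own median on all 12 arrays, and the groups overlapped over nearly their whole range (difference -0.050, 95% interval -0.23 to 0.13, adjusted p = 0.759). Axin2, a scaffold of the complex that degrades β-catenin and a feedback brake on the pathway, read 95.6 to 122 in KO livers with a median of 115 and 101 to 129 in WT livers with a median of 119 at its brighter probe set 1436845_at (difference -0.071, 95% interval -0.22 to 0.081, adjusted p = 0.577). Its other probe set, 1421341_at, read 10.1 to 29.2 in KO and 19.7 to 41.2 in WT livers and did not pass (difference -0.22, adjusted p = 0.39).

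Tbx3, a T-box transcription factor that β-catenin switches on in liver, read 100.055 to 146 in KO livers with a median of 128 and 79.1 to 121 in WT livers with a median of 113 at its brighter probe set 1448029_at. Of the KO arrays 3 exceeded the highest WT array, while WT replicate 5 was the lowest of all. The difference was 0.22 (SE 0.102, 95% interval -0.0024 to 0.44, adjusted p = 0.195). Its dimmer probe set 1439567_at, at 15.1 to 34.3 in KO and 16.3 to 32.0 in WT livers, differed by -0.0036 (adjusted p = 0.991).

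Cyp2e1 encodes the cytochrome P450 that oxidises ethanol and acetaminophen. Its probe set 1415994_at was the steadiest of the members, from 8963 to 9409 in KO livers with a median of 9269 and from 8605 to 9053 in WT livers with a median of 8943. Of the KO arrays 5 were above the highest WT array, yet the difference was 0.056 (SE 0.0361, 95% interval -0.022 to 0.13, adjusted p = 0.364). It did not pass. The signal of very bright probe sets can be compressed, and 27 of 22626 probe sets had a higher mean than that of Cyp2e1, so its narrow spread and interval may understate a change. Compression was not tested.

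Gulo encodes gulonolactone oxidase, the last enzyme of vitamin C synthesis, which mice have and humans lack. Its probe set 1451297_at read from 693 to 946 in KO livers with a median of 739 and from 695 to 1001 in WT livers with a median of 916. KO replicate 3 stood above the other 5 KO arrays and WT replicate 3 below the other 5 WT arrays. The difference was -0.21 (SE 0.0953, 95% interval -0.41 to -0.00035, unadjusted p = 0.0497, adjusted p = 0.189) and did not pass. Without KO replicate 3 it was -0.27 (adjusted p = 0.0732), and without WT replicate 3 it was -0.28 (adjusted p = 0.0526).

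**Figure D3:**
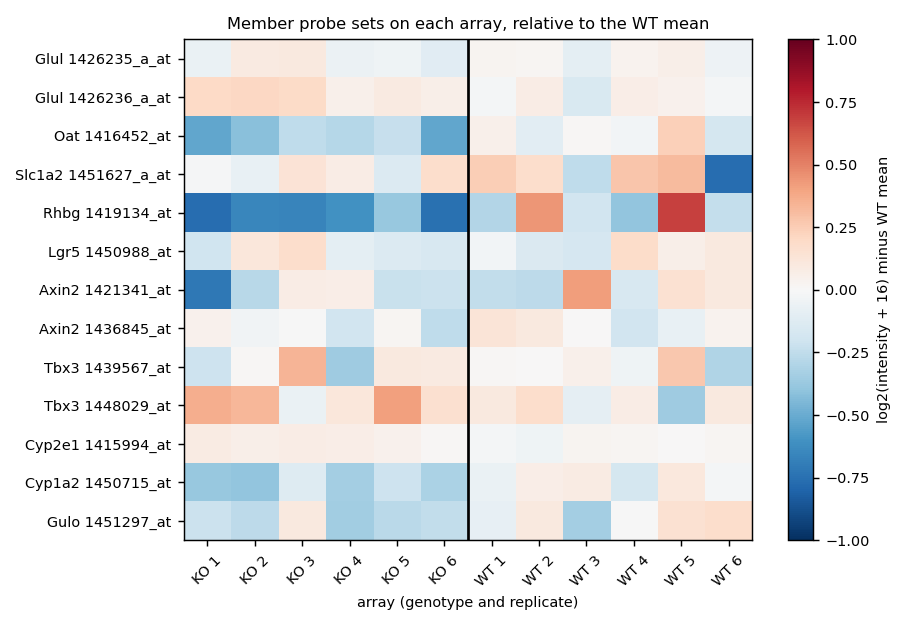
Each member probe set (rows) on each array (columns, KO left and WT right of the line), as log2(intensity + 16) minus the WT mean, with blue for lower and red for higher. Rhbg is red on WT replicates 2 and 5, which raise its WT mean, and is blue on the other WT arrays as well as on all 6 KO arrays. Oat and Cyp1a2 are blue on all 6 KO arrays.

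Pairs of members varied together to different degrees from mouse to mouse, with Pearson correlations from -0.58 (Oat and Tbx3) to 0.66. Other gene sets were not compared by this measure. After each genotype's mean was removed, the highest Pearson correlation among the 45 pairs of members over 12 arrays was 0.66, between Glul and Gulo (Spearman 0.51), and it was 0.28 without the 2 arrays farthest from the median of Glul. Among the genes that fell, Rhbg and Cyp1a2 had 0.60 (Spearman 0.52), Oat and Cyp1a2 0.51 (Spearman 0.50), and Oat and Rhbg 0.49 (Spearman 0.43). Without the 2 arrays farthest from the median of the first gene of each pair, the Pearson values were 0.52, 0.44 and 0.068. These are descriptions of arrays that share their scaling.

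Among 6687 genes with a mean intensity of at least 100, those whose pattern over the 12 arrays was most like that of Glul, by the same measure, were Uso1, a vesicle tethering protein (0.93), Gorasp2, a Golgi stacking protein (0.91), and Copb2, a coatomer subunit (0.90). For Oat they were the potassium channel gene Kcnc1 (0.84), Aadat, an aminotransferase of lysine and tryptophan breakdown (0.83), and Apba3 (0.80). For Cyp1a2 they were Mettl17 (0.86), Hmbox1 (0.83) and the calpain small subunit gene Capns1 (0.83). For Rhbg they were Csf1r, the macrophage growth factor receptor (0.92), the carboxylesterase gene Ces1g (0.91) and Flt4, a vascular growth factor receptor (0.91). The correlations of Rhbg were 0.96 to 0.98 among WT arrays and 0.28 to 0.51 among KO arrays. Among WT arrays the spread of Rhbg came mainly from replicates 2 and 5, at 277 and 331. No correlation of Rhbg with Csf1r, Ces1g or Flt4 was computed without them. Over the 12 arrays the Spearman values with Rhbg were 0.83 for Csf1r, 0.90 for Ces1g and 0.78 for Flt4.

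Over all 12393 genes, 5.24% were lower and 6.46% higher at the same threshold, and 843 did not overlap between groups in either direction. These shares apply to each list below. Further genes enriched around the central vein gave no common direction. Of 19 measured genes 1 was lower, none was higher, and the median difference was 0.0077. The 1 was Lhpp, a phosphatase of histidine residues and pyrophosphate, at 444 ± 28.8 in KO and 619 ± 59.9 in WT livers (SD, n = 6 each, 1.38-fold down, adjusted p = 0.00159), without overlap. Cyp7a1, the rate-limiting enzyme of bile acid synthesis, was at 883 ± 520.2 in KO and 1317 ± 317 in WT livers (SD, n = 6 each) and did not pass (adjusted p = 0.24). Its dimmer probe set was at 265 ± 158 in KO and 253 ± 59.2 in WT livers (SD, n = 6 each, difference -0.18, adjusted p = 0.835). Cyp7a1 was singled out after its values were seen, as were Cyp2c29 and Cyp27a1, whose differences were -0.066 (adjusted p = 0.502) and 0.0077 (adjusted p = 0.959).

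At the other end of the lobule, 5 of 15 measured periportal genes were lower and none was higher, with a median of -0.097. The sum of all 15 intensities was 34306 to 35529 in KO and 38715 to 43051 in WT livers. Pck1 alone had means of 2743 in KO and 5182 in WT livers. The sums of the 10 members, 17129 to 18723 in KO and 18391 to 19747 in WT livers, overlapped. Those of the further pericentral genes, 36885 to 42141 in KO and 38205 to 44171 in WT livers, overlapped as well. By smallest p the lower periportal genes were Pck1 of gluconeogenesis (1.88-fold down, adjusted p = 2.46e-05, with a difference of -0.91 that was -0.43 on the mean of its probe sets), the aldehyde dehydrogenase Aldh1b1 (1.48-fold, adjusted p = 0.0104) and the urea cycle enzyme Otc (1.12-fold, adjusted p = 0.0205). The other 2, named after their values were seen, were Hal of histidine breakdown and Cps1, the first step of the urea cycle. Their calls were lost without any 1 of several arrays (KO 1, KO 4, WT 3 or WT 4 for Hal, adjusted p up to 0.0557, and KO 1, 2 or 5 or WT 3, 4 or 5 for Cps1, adjusted p up to 0.0628). Otc lost its call on the mean of its probe sets (adjusted p = 0.0845), and the replicate block ended those of Otc, Hal and Cps1 (adjusted p of 0.0761, 0.0609 and 0.0645). Some genes from each end of the lobule were thus lower in KO livers, and most genes of each list did not pass. The lower ones were 3 of 10 members, 1 of 19 further pericentral genes and 5 of 15 periportal genes. Whether the 2 zones differ from each other was not tested.

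**Figure D4:**
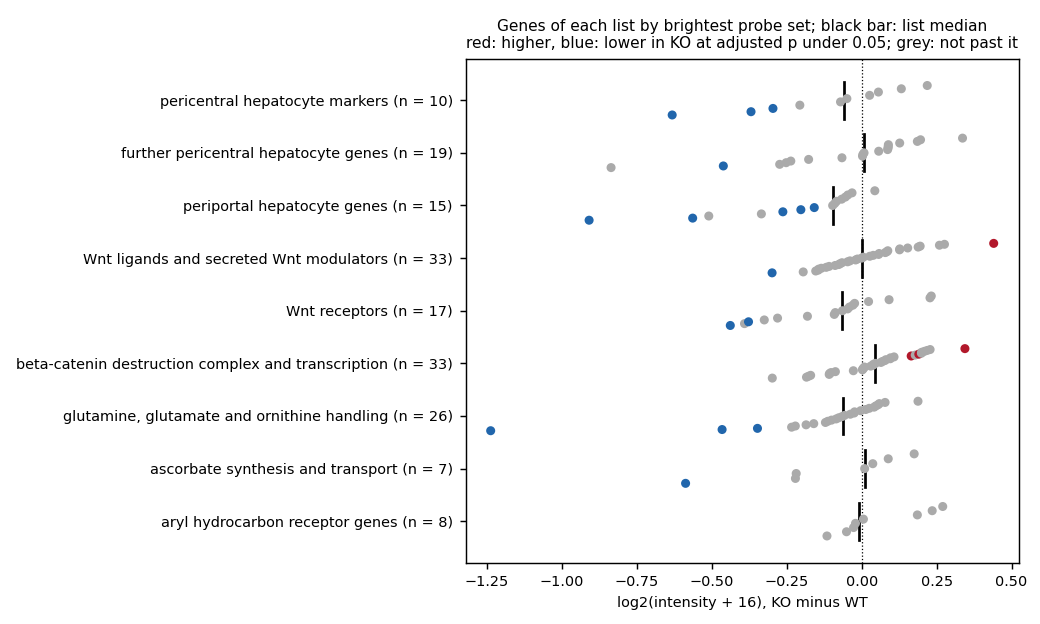
Difference between KO and WT livers (log2(intensity + 16), horizontal axis) for each gene of the lists, 1 point a gene by its brightest probe set, with the list's median as a black bar. The 10 pericentral members have a median of -0.06, the further pericentral genes 0.0077 and the periportal genes -0.097.

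Of the ligands and secreted modulators of Wnt signalling, 1 of 33 was higher and 1 lower. Wnt5a, a ligand of the β-catenin-independent branch, was at 49.6 ± 8.37 in KO and 32.5 ± 7.83 in WT livers (SD, n = 6 each, adjusted p = 0.025). The R-spondin gene Rspo1 was near the bottom of the scale, at 9.41 ± 2.52 in KO and 15.3 ± 3.0005 in WT livers (SD, n = 6 each, adjusted p = 0.0306). Both overlapped between groups, and Wnt5a lost its call without KO replicate 2, 3 or 5 and Rspo1 without KO replicate 1 or 2 or WT replicate 1, 4, 5 or 6. Both sit among the dim probe sets, and the replicate block ended the call of Wnt5a (adjusted p = 0.0578), as the trended and robust variance model did that of Rspo1 (adjusted p = 0.0539). Of 10 dimmer probe sets of the list 1 was higher, that of Wls, the carrier that brings Wnt ligands to the cell surface. Wnt2, a ligand made by liver endothelium and singled out after its value was seen, was at 104 in KO and 116 in WT livers and did not pass (adjusted p = 0.271).

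Of 17 Wnt receptors and their regulators 2 were lower and none higher, with a median of -0.065. Lrp6, the co-receptor, was at 365 ± 29.6 in KO and 502 ± 61.7 in WT livers (SD, n = 6 each, 1.36-fold down, adjusted p = 0.00528). Fzd4, a Frizzled receptor, was at 226 ± 11.7 in KO and 303 ± 64.1 in WT livers (SD, n = 6 each, 1.30-fold down, adjusted p = 0.0292). Neither overlapped between groups, which was so for 3.12% of all genes in this direction. On the mean of each gene's probe sets both calls were lost (adjusted p of 0.292 and 0.115), since each has a second probe set, at 14.4 and 9.84 in KO and 11.6 and 9.29 in WT livers. Fzd4 also lost its call without KO replicate 1, 2, 3 or 5 or WT replicate 3 (adjusted p from 0.0502 to 0.0605).

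Inside the cell, 3 of 33 genes of the destruction complex and of β-catenin transcription were higher in KO livers and none was lower, with a median of 0.046. Ctnnb1, which encodes β-catenin itself, was at 2567 ± 129 in KO and 2249 ± 155 in WT livers (SD, n = 6 each, 1.14-fold up, adjusted p = 0.0404), and its other probe sets were higher by 0.53 and 0.40 (adjusted p of 0.0161 and 0.011). The brightest one no longer passed under median centring (adjusted p = 0.066), nor without any 1 of KO replicates 1, 2, 4 or 6 or WT replicates 3, 4, 5 or 6 (adjusted p up to 0.0852). Tle4, a Groucho corepressor, rose 1.27-fold (adjusted p = 0.0142) without overlap, and it passed at both of its probe sets. Fbxw11, a subunit of the ubiquitin ligase that marks β-catenin for degradation, rose 1.12-fold (adjusted p = 0.0474). Fbxw11 lost its call in 14 of 21 alternatives, among them median centring (adjusted p = 0.0973), the replicate block (adjusted p = 0.0755) and the loss of any 1 array other than KO replicate 6 or WT replicate 2. Of 35 dimmer probe sets of these genes 7 were higher and none was lower, among them 1 each of Apc, Csnk1d and Tcf7l2, whose brightest probe sets did not pass. By the same rule 6.46% of all genes and 1543 of all 22626 probe sets were higher in KO livers.

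Beside Oat and Rhbg, 3 of 26 genes that handle glutamine, glutamate and ornithine were lower and none was higher, with a median of -0.061. These were the mitochondrial ornithine carrier Slc25a15 (1.38-fold down, adjusted p = 0.00314), the cytosolic aspartate aminotransferase Got1 (2.36-fold down, adjusted p = 0.0195) and the proline dehydrogenase Prodh (1.27-fold down, adjusted p = 0.0314). Got1 varied widely, at 283 ± 78.6 in KO and 754 ± 419 in WT livers (SD, n = 6 each), and its groups overlapped. Of 20 dimmer probe sets of the list 2 were lower, those of the alanine aminotransferase gene Gpt2 and the ornithine decarboxylase gene Odc1. Prodh, which like Oat feeds the glutamate semialdehyde pool, lost its call without KO replicate 1, 2, 4 or 5 or WT replicate 3, 4, 5 or 6 (adjusted p up to 0.0666). Of 7 measured genes of vitamin C synthesis and transport 1 was lower, the glucose and dehydroascorbate transporter Slc2a1, at 172 ± 26.7 in KO and 267 ± 39.6 in WT livers (SD, n = 6 each, adjusted p = 0.00539). Of 11 dimmer probe sets of these genes 4 were lower, 2 of them for Ugp2, which makes UDP-glucose, and 1 each for Slc2a1 and the ascorbate transporter gene Slc23a1. The brightest probe set of Ugp2 was at 1688 in both KO and WT livers (adjusted p = 0.964), and that of Slc23a1 did not pass (adjusted p = 0.229). Of 8 measured genes tied to the aryl hydrocarbon receptor, the inducer of Cyp1a2, none passed at its brightest probe set. Of their 6 dimmer probe sets 2 were higher in KO livers. One belongs to Tiparp, a target gene that restrains the receptor, at 59.4 in KO and 44.0 in WT livers without overlap (1.26-fold up, adjusted p = 0.0273). The other belongs to the cytochrome P450 gene Cyp1b1, at 16.4 in KO and 9.01 in WT livers, near the bottom of the scale (1.29-fold up, adjusted p = 0.0201). The brightest probe sets of these genes differed by 0.24 for Tiparp (adjusted p = 0.0582) and by -0.027 for Cyp1b1 (adjusted p = 0.822). Cyp1a1, singled out after its value was seen because it shares that inducer, was at 111 ± 20.3 in KO and 88.5 ± 14.1 in WT livers (SD, n = 6 each, adjusted p = 0.15).

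Some markers of other cell types that a piece of liver can hold passed the threshold, while each list's summed intensities overlapped between groups. Over all genes 6.46% were higher and 5.24% lower by the same rule. Of 14 endothelial markers 1 was higher (Fcgr2b, 1.43-fold up, adjusted p = 0.000489) and 1 lower (Vwf, 1.33-fold down, adjusted p = 0.0111), with summed intensities of 3695 to 4069 in KO and 3418 to 3955 in WT livers. The probe set of Vwf was dim, at 23.1 ± 4.25 in KO and 36.2 ± 5.88 in WT livers (SD, n = 6 each). Of 12 stellate cell and fibroblast markers 4 were higher, Dcn, Ecm1, Rgs5 and Reln, with sums of 3721 to 4477 in KO and 3175 to 3898 in WT livers. Rgs5 lost its call without WT replicate 6 (adjusted p = 0.0503) and Reln without any 1 KO array or WT replicate 5 or 6 (adjusted p up to 0.0961). These marker genes were named after their values were seen. Of 7 dimmer endothelial probe sets 3 were higher, all of Fcgr2b. Of 9 dimmer stellate cell and fibroblast probe sets 1 was higher, that of Rgs5, and in both lists none was lower. Of 12 Kupffer cell and leukocyte markers none passed, and their sums were 4437 to 5918 in KO and 3403 to 7926 in WT livers. Of 5 cholangiocyte markers none passed, and their sums were 115 to 154 in KO and 96.6 to 143 in WT livers. The part of these cells in the member differences was not tested.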

How the data were processed

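Liver RNA of 12 mice was measured on Affymetrix arrays, 1 liver an array, after labelling as biotinylated cRNA, per the labels' protocols. The authors deposited 1 intensity per probe set and array, on a linear scale and already summarised and scaled. Which program did so is not given in the sources used. A second deposited table covers 727 probe sets that the authors selected. Per the file headers, it holds a signed fold (a score here), a p-value without adjustment, and present calls as a percent of the arrays in a group. Its intensity values match the other deposited table within 0.005, and its fold, p-value and percent are printed for Rhbg alone. Depth has no counterpart on arrays, and precision is limited by the number of arrays.

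Of 22690 probe sets, 64 controls were left out. The platform annotation gave 1 symbol to 20380, several to 691 and none to 1555. A gene is represented by its single-symbol probe set with the highest mean. Calls at a gene's dimmer probe sets are given beside its list, and genes named from them were chosen after their values were seen. Values were log2(intensity + 16), fitted by lmFit and eBayes of limma 3.58.1 (R 4.3.3) over all 22626 probe sets, two-sided, with Benjamini-Hochberg adjustment and a threshold of 0.05. Folds are 2 to the power of that difference and so understate dim genes. Replicates are separate livers per the labels. The procedure was tested on simulated data. The members and gene lists were chosen with earlier results of these data known. The rule for naming genes took all members, up to 3 genes per direction with the smallest p in each list, and the 3 most alike patterns for Glul and each called member. Alternatives changed the added constant (1 and 64), a filter on means under 50, the scaling, the variance model, the replicate block, the arrays used and the probe set rule. Promoter sequences came from RefSeq, build GRCm38.p6. Figures used matplotlib 3.10.9 in Python 3.11.15.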

Additional observations from a re-analysis of the deposited data

Results flagged for a closer look

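Gulo in KO replicate 3 read 946.054, against 693 to 761 in the other 5 KO livers. Its gap to the nearest array was 0.731 of the group's range, above Dixon's 95% value of 0.625 for 6 arrays. It was the 1 such case among 26 groups of member probe sets, and chance alone marks about 1 group in 20.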

How the results depend on the processing

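The falls of Oat and Cyp1a2 passed the threshold in all 21 alternatives run, with differences from -0.40 to -0.32 and from -0.33 to -0.25. Rhbg passed in 15 of 21, and the 6 losses were fits without 1 array. The count of members lower in KO was 3, and 2 to 3 without each array in turn. The count of members higher in KO was 0, and 1 (Glul, at 0.13) under the trended and robust variance model. Slc1a2 turned to -0.0047 under quantile normalization and -0.0065 under median centring, and lay between -0.13 and 0.089 without 1 array. The probe sets past the threshold numbered 2708, from 2006 to 2742 without 1 array, and 1326 genes passed when a gene's probe sets were averaged, where 12393 genes rather than 22626 probe sets were tested. Of the calls 57.0% were higher in KO as deposited, 49.2% after quantile normalization and 44.0% after median centring, with medians over all probe sets of 0.017, -0.00051 and -0.016. With the replicate block 1906 probe sets passed. Livers with the same replicate number did not deviate together (correlations from -0.078 to 0.078), so the numbers are not taken as pairs, and the block changed no call of a member. Probe sets below the array median, such as those of Lgr5, limit what can be seen for the Wnt targets.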
